A study of Mus musculus with 3 samples.

Results

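In all, 6 of the 32285 genes in the deposited tables were followed because their products mark how lymphocytes leave or stay in a tissue: the sphingosine-1-phosphate (S1P) receptors *S1pr1*, *S1pr4* and *S1pr5*, the transcription factor *Klf2*, the chemokine receptor *Ccr7* and the activation and retention marker *Cd69*. They were chosen by symbol and described across 6 lymphocyte types of mouse tumors. The cells came from 1 subcutaneous tumor model in transgenic WT C57BL/6 Kaede mice, whose cells bear the photoconvertible protein Kaede, green until violet light makes it red. Mice received 250000 cells of MC38-Ova, a mouse colon carcinoma line, the tumors were photoconverted on day 13, and tumor-infiltrating lymphocytes (TILs) were sorted on day 15, 48 h later. Kaede-red cells were therefore already in the tumor when the light was given, and Kaede-green cells had mostly entered since. All tumors, of both colors, were isotype control treated. Single-cell 3' libraries (10x Genomics) were made from 2 biological replicates of Kaede-green TILs (Kaede-green 1 and 2) and from 1 sample of Kaede-red TILs. Because Kaede-red is 1 library, color and library cannot be told apart, and no test between colors was possible.

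S1P is abundant in blood and lymph and scarce inside tissues, and lymphocytes that carry S1PR1 follow this gradient out of a tissue. KLF2 is a transcription factor of resting, circulating lymphocytes that switches on *S1pr1*. CD69, induced within hours of activation, binds S1PR1 at the cell surface and has it taken in and degraded, so a cell can lose the receptor protein while keeping its RNA. S1PR5 serves the egress of NK cells, S1PR4 is a further S1P receptor of blood cells, and CCR7 guides cells toward lymphatic vessels and lymph node T cell zones.

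On mm10 (GRCm38), *S1pr1* (ENSMUSG00000045092) lies at chr3:115710433-115715072 on the minus strand. *S1pr4* (ENSMUSG00000044199) lies at chr10:81497747-81500132 (minus), *S1pr5* (ENSMUSG00000045087) at chr9:21242912-21248443 (minus), *Klf2* (ENSMUSG00000055148) at chr8:72319033-72321656 (plus), *Ccr7* (ENSMUSG00000037944) at chr11:99144196-99155077 (minus) and *Cd69* (ENSMUSG00000030156) at chr6:129267325-129275436 (minus). An antisense gene, *Gm48303*, overlaps *S1pr5*.

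KLF factors bind CACCC-type elements, and MEF2 factors act on *Klf2* itself, so the sequence upstream of the factor and of 1 of the receptors is shown. The RefSeq promoter table (GRCm38.p6) held 3 of the 6 genes (*S1pr4*, *S1pr5* and *Klf2*). The 250 bases before the RefSeq start are written 5' to 3' on the gene's strand, at chr8:72318812-72319061 for *Klf2* (plus) and chr9:21248444-21248693 for *S1pr5* (minus), and the capitals mark CACCC (or GGGTG, its complement) and, in *Klf2*, a match to the MEF2 consensus, which reads the same on both strands.
Klf2: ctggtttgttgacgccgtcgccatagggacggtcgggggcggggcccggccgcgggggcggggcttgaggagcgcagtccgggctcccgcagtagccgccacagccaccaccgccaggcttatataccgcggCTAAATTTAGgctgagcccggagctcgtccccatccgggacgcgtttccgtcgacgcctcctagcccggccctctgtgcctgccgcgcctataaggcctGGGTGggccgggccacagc
S1pr5: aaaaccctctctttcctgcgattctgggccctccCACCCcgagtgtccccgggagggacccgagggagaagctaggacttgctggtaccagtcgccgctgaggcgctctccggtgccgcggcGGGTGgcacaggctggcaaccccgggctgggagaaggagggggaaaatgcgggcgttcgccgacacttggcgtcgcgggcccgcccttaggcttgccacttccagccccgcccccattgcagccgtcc
CACCC on either strand stood in 52.0% of the 32851 windows of this length, so its presence in all 3 matched members is a description only. The MEF2 consensus, chosen after the *Klf2* sequence was seen, had a match in 2.92% of the windows. In *Klf2* that match began 118 bases before the start and the CACCC element 19 bases before it. In *S1pr5* the elements began 216 and 128 bases before the start, and in *S1pr4* 1 began at 107 bases.

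The libraries held 10498, 12327 and 11956 cell barcodes for Kaede-green 1, Kaede-green 2 and Kaede-red, with median UMIs (unique molecules) per cell of 6438, 8007 and 11079. Between 20 and 36 barcodes were shared by any 2 libraries. Types were set by raw UMIs: NK cells (*Ncr1* at least 1, *Cd3e* at most 1), ILC-like cells (NK cells with at least 2 *Rora* and no *Eomes*), CD8 T cells (*Cd3e* at least 2, with *Cd8a* and *Cd8b1*), CD4 T cells (*Cd3e* at least 2, with *Cd4* and no *Foxp3*), Tregs (*Cd3e* at least 2, with *Foxp3*) and B cells (*Cd79a* at least 2). There were 2598, 2663 and 3174 NK cells, which include 93, 160 and 252 ILC-like cells, 2291, 3125 and 3982 CD8 T cells, 420, 439 and 211 CD4 T cells, 388, 705 and 705 Tregs, and 207, 131 and 9 B cells. NK cells were much deeper in Kaede-red, at a median of 17241 UMIs against 6129.5 and 8177, and CD8 T cells less so, at 14091 against 8861 and 10380. ILC-like cells were deeper too, at 14660 against 7832 and 10124.5. CD4 T cells were about as deep, at 5974 against 5886 and 6999, and Tregs were shallower, at 7139 against 9577.5 and 10070. Among markers that no rule used, *Gzma* was highest in NK cells, at 5311 UMIs per 1e6 UMIs (CPM), and *Cd40lg* in CD4 T cells, at 71.8 CPM. Others did not set the types apart, such as *Klrd1* at 1108 CPM in NK cells and 1063 CPM in CD8 T cells. The 6 CD4 T markers summed to 4186 CPM in CD4 T cells against 4436 CPM in CD8 T cells. The 4 gamma-delta T cell markers summed highest in CD4 T cells, at 85.5 CPM, against 71.4 CPM in NK cells and 57.3 CPM in CD8 T cells. CD4 T cells are therefore also named by their rule, which does not leave out gamma-delta T cells. The ILC-like cells are named by their rule alone, since the 8 ILC-like markers summed to 762 CPM in them against 863 CPM in CD8 T cells. B cells had too few red cells for the color comparison.

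*S1pr1*, the main egress receptor, was highest in CD4 T and B cells, intermediate in CD8 T cells and Tregs, and lowest in NK and ILC-like cells. In CD4 T cells it stood at 296.3 and 242.4 CPM in the Kaede-green libraries and 77.5 CPM in Kaede-red. CD8 T cells followed at 81.8, 64.5 and 11.2 CPM, and Tregs at 60.4, 54.2 and 21.4 CPM. In NK cells they were 27.1, 31.0 and 2.60 CPM, and in ILC-like cells 24.0, 22.3 and 2.81 CPM. B cells held 199.5 and 249.7 CPM in Kaede-green and 151.6 CPM over the 9 red cells. In a fit of 17 sums over libraries and types with the library as a block, CD4 T cells held 11.3-fold more than NK cells (log2 SE 0.29, adjusted p = 2.92e-07, quasi-likelihood test of edgeR, adjusted by Benjamini-Hochberg over all genes, n = 3 libraries). By the same edgeR test CD4 T cells exceeded Tregs 4.35-fold (adjusted p = 0.000166) and CD8 T cells exceeded NK cells 2.74-fold (adjusted p = 0.000707). Types at the same level of this order (highest, intermediate or lowest) were not separated by the same edgeR test. Adjusted p was 0.518 for CD4 T against B cells, 0.881 for CD8 T cells against Tregs and 0.882 for NK against ILC-like cells. Without the red library CD8 T cells exceeded Tregs by 0.45 on the log2 scale (adjusted p = 0.0161 by edgeR).

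*Klf2* was highest in B cells and then in CD4 T cells. B cells held 1051 and 801.8 CPM in Kaede-green and 174.9 CPM over the 9 red cells, and CD4 T cells held 485.4, 360.8 and 261.9 CPM. NK cells held 268.0, 233.3 and 53.8 CPM, CD8 T cells 240.4, 191.2 and 68.1 CPM and Tregs 158.0, 153.5 and 156.5 CPM, so the libraries of the cytotoxic types were far apart and those of Tregs close together. NK and CD8 T cells were not separated (adjusted p = 0.768, edgeR). Without the Kaede-red library NK cells were higher than CD8 T cells by 0.28 on the log2 scale (adjusted p = 0.0485, edgeR). They were then higher than Tregs by 0.83 (adjusted p = 1.66e-05, edgeR). Over libraries B cells exceeded NK cells 4.33-fold (adjusted p = 0.000165) and CD4 T cells exceeded NK cells 2.03-fold (adjusted p = 0.0161) and Tregs 2.21-fold (adjusted p = 0.0162, all by edgeR). The calls for CD4 T cells over NK cells and over Tregs were lost without either Kaede-green library, at adjusted p of 0.0636 and 0.0509 for NK cells and 0.234 and 0.165 for Tregs.

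*Ccr7* set B and T cells apart from innate cells. CD8 T cells held 338.6, 283.3 and 221.2 CPM, Tregs 216.0, 213.8 and 101.2 CPM, and NK cells 30.8, 36.6 and 19.8 CPM, with no overlap between CD8 T and NK cells. B cells exceeded NK cells 19.9-fold (adjusted p = 9.95e-09) and CD8 T cells exceeded them 9.79-fold (adjusted p = 4.48e-08, edgeR). *Ccr7* was concentrated in few cells of each type but B cells. In CD8 T cells the 10% of cells with the most UMIs of it held 64.2%, 70.3% and 80.2% of all its UMIs in the 3 libraries. These shares were higher in CD4 T cells (83.8%, 82.9% and 95.6%), Tregs (76.9%, 83.1% and 95.4%), NK cells (100%, 82.9% and 96.5%) and ILC-like cells (86.7%, 81.0% and 97.1%). In Kaede-green B cells they were 29.7% and 28.4%. Where under 10% of cells hold a UMI the share is 100% by construction, as in Kaede-green 1 NK cells, of which 6.89% held *Ccr7*. The shares thus also follow how often a gene is detected, and *S1pr1* in NK cells gave 81.8%, 70.95% and 100%.

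*Cd69* was about as high in CD8 T cells, Tregs and NK cells and higher in CD4 T and B cells. CD4 T cells held 599.6, 353.1 and 395.6 CPM, NK cells 245.2, 191.8 and 134.5 CPM, and CD8 T cells 255.3, 199.9 and 137.0 CPM. CD4 T cells exceeded NK cells 2.14-fold (adjusted p = 1.87e-05) and Tregs 2.06-fold (adjusted p = 0.000115), and CD4 T and B cells were not separated (adjusted p = 0.893, edgeR).

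*S1pr4* separated the fewest type pairs. It ranged from 32.6 to 48.6 CPM in NK cells, from 56.8 to 67.6 CPM in CD8 T cells and from 67.9 to 101.4 CPM in CD4 T cells, and NK cells were below CD8 T cells 1.52-fold (adjusted p = 0.00616, edgeR), a call lost without Kaede-green 2 (adjusted p = 0.0920). *S1pr5*, the NK egress receptor, was low in all types and highest in NK cells, at 4.93, 1.83 and 0.930 CPM, followed in UMIs by CD8 T cells at 0.854, 0.816 and 0.107 CPM. In the other types it ranged from 0 to 1.28 CPM on at most 7 UMIs in a type, where 0 UMIs allow up to 35.0 CPM in the small red B cell sum, and it was too low for the test between types.

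None of the 5 members that could be tested separated ILC-like from NK cells, with adjusted p from 0.301 (*Klf2*) to 0.882 (*S1pr1*) by edgeR. They held 125.3, 132.5 and 56.7 CPM of *Klf2*, 49.0, 58.7 and 15.9 CPM of *Ccr7*, 220.1, 173.7 and 109.0 CPM of *Cd69* and 49.0, 42.2 and 53.2 CPM of *S1pr4*. Without the Kaede-red library *Klf2* was 1.03 higher on the log2 scale in NK than in ILC-like cells (adjusted p = 0.000180) and *Ccr7* 0.71 lower (-0.71, adjusted p = 0.0220, edgeR). A p that misses the threshold therefore does not show that the types are alike.

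Of 75 tests of the 5 other members over 15 type pairs, 47 passed the adjusted p threshold of 0.05: 12 for *S1pr1*, 12 for *Ccr7*, 9 for *Klf2*, 8 for *Cd69* and 6 for *S1pr4*. Over all 11683 genes the share that passed in either direction was 2.98% for NK against ILC-like cells and 27.2%, 34.2%, 42.1% and 31.1% for NK cells against CD8 T cells, CD4 T cells, Tregs and B cells. For ILC-like cells against the last 4 it was 17.1%, 27.8%, 33.4% and 28.5%. For CD8 T cells against CD4 T cells, Tregs and B cells it was 23.0%, 27.3% and 31.9%, for CD4 T cells against Tregs and B cells 20.9% and 26.0%, and for Tregs against B cells 36.1%.

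**Figure D1:**
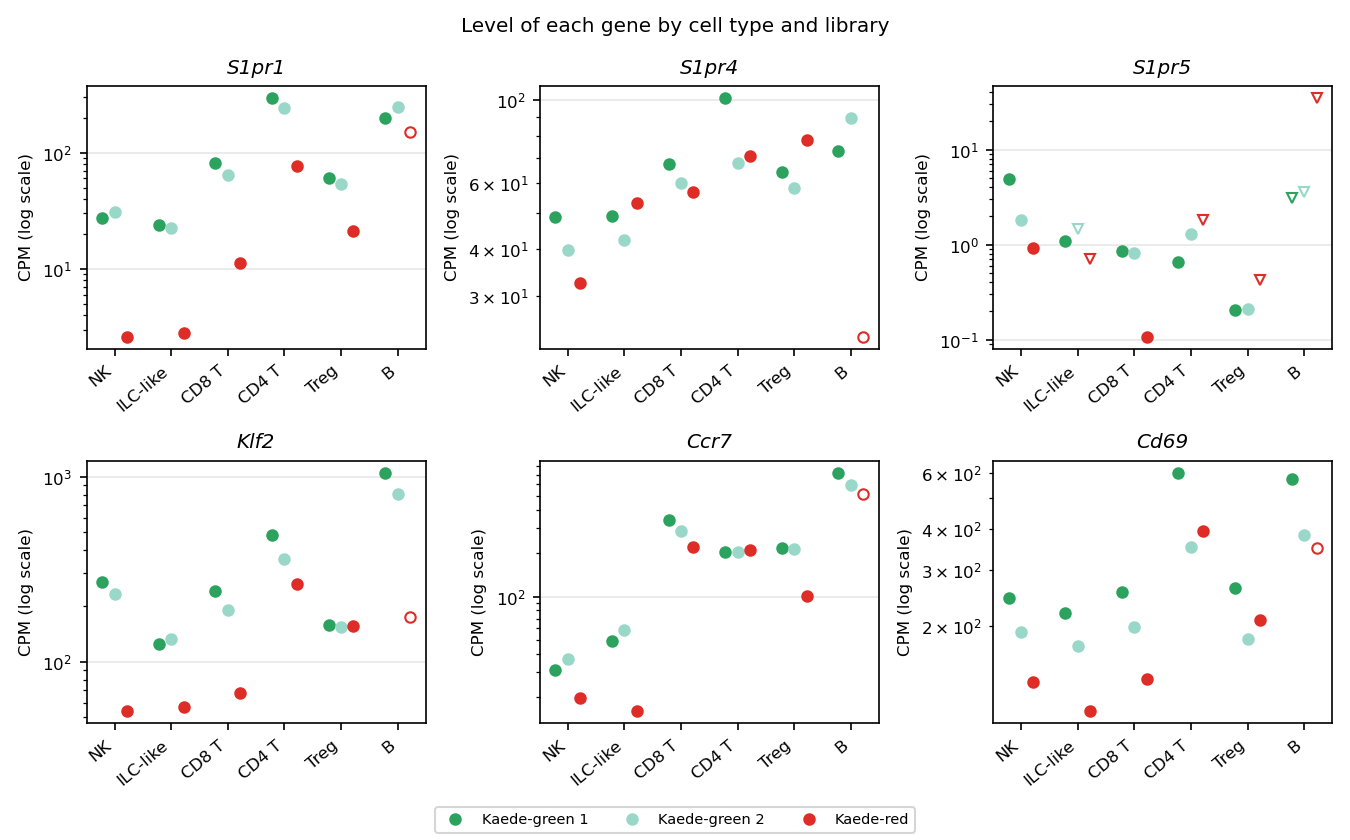
Level of each of the 6 genes (CPM, log axis) by cell type, 1 point per library, with Kaede-green 1, Kaede-green 2 and Kaede-red in separate colors. Open circles are sums of under 20 cells and open triangles the limit of 3 counts where no UMI was found; *S1pr1* in Kaede-red lies below both Kaede-green libraries in each type, while *S1pr4* points lie close together.

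The comparison between colors asks whether cells that had stayed in the tumor differed from those that had entered more recently, and whether the difference was shared by all types. A gene was called lower or higher in Kaede-red where its CPM differed at least 1.5-fold, in the same direction, from each Kaede-green library and by more than these differed from each other. Of the 27 gene and type pairs with at least 30 UMIs, 13 were lower in Kaede-red and 0 higher. The same call took 15.3% of all genes as lower in NK cells, 4.87% in ILC-like cells, 7.41% in CD8 T cells, 4.31% in CD4 T cells and 2.5% in Tregs, and as higher 5.72%, 2.5%, 4.49%, 5.5% and 3.03% in the same order. The members were chosen with earlier results of these data known, so the share of 13 in 27 beside this background is a description only. *S1pr1* gives 5 of the 13, and in CD4 T cells it was the only member called. NK sums here include the ILC-like cells, so the pairs of these 2 types are not separate.

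*S1pr1* was the member lower in all 5 types. In NK cells it was 11.1-fold lower, with log2 ratios of Kaede-red to Kaede-green 1 and 2 of -3.38 (95% counting interval -3.65 to -3.13) and -3.57 (-3.83 to -3.33), where the Kaede-green libraries differed by 0.19. In ILC-like cells it was 8.03-fold lower on 80 UMIs in all, with ratios of -3.07 (-4.24 to -2.01) and -2.95 (-4.04 to -2.05). The change in CD8 T cells was 6.47-fold, with ratios of -2.87 (-2.99 to -2.74) and -2.52 (-2.64 to -2.40). Over all cells the CD4 lineage changed least, CD4 T cells 3.45-fold (mean log2 ratio -1.79) and Tregs 2.67-fold (mean log2 ratio -1.42). That order was not kept among cells of like depth (given with the depth window). Both Kaede-green libraries were above Kaede-red in each of these types, and the intervals, which cover counting error only, did not reach 0. Among 8554 genes tested in all 5 types, 7 (0.0818%) were lower in each, *S1pr1* with *Dhrs3*, *Pde2a*, *Smad3*, *Itga2*, *Pou6f1* and *Gramd3*, and 1 (*Smyd3*, 0.0117%) was higher in each.

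Over all cells *Klf2* was called lower in NK, CD8 T and ILC-like cells and not in CD4 T cells or Tregs. In NK cells it was 4.65-fold lower (ratios -2.32 and -2.12), in CD8 T cells 3.15-fold lower (-1.82 and -1.49) and in ILC-like cells 2.27-fold lower (-1.15 and -1.22). In Tregs, at 153.5 to 158.0 CPM in all 3 libraries, it gave ratios of -0.01 (-0.15 to 0.12) and 0.03 (-0.09 to 0.14), so a 1.5-fold change lies outside the counting intervals. CD4 T cells lay between, with ratios of -0.89 and -0.46 that missed the call. Whether the types differ in this change was not testable with 1 red library.

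*Ccr7* was lower in Kaede-red Tregs, at 101.2 CPM against 216.0 and 213.8 CPM, 2.12-fold. It was also lower in ILC-like cells, at 15.9 CPM against 49.0 and 58.7 CPM, and in NK cells, at 19.8 CPM against 30.8 and 36.6 CPM. In CD4 T cells the 3 values were 202.1, 204.4 and 209.4 CPM, and in CD8 T cells the ratios of -0.61 and -0.36 missed the call. The call in NK cells is a weak one, since it was made under 4 of 13 alternative settings, against 13 of 13 for Tregs and for ILC-like cells. In ILC-like cells the 3.37-fold change moved to 1.81-fold with all deposited barcodes and to 8.04-fold without cycling cells. The share of red NK cells with a *Ccr7* UMI was 11.3%. In cells chosen by the plasmacytoid dendritic cell marker *Siglech* it was close, at 11.4% of 70 red cells (exact binomial 95% interval 5.07% to 21.3%, at 20.8 CPM). The 10.7% in red ILC-like cells lay within the same interval. The Kaede-green shares were close too, at 6.89% and 16.6% in NK cells against 6.42% and 17.1%, but at unlike depth. Median UMIs were 6129.5 and 8177 in these NK cells against 11434 and 12187.5 in *Siglech* cells. In CPM the Kaede-green NK cells stood higher, at 30.8 and 36.6 against 11.9 and 18.5 CPM. Whether *Siglech* cells hold *Ccr7* of their own was not tested, so these shares cannot decide whether NK cells express it.

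*Cd69*, the retention marker, was not higher in Kaede-red in any type. It was called lower in ILC-like cells, at 109.0 CPM against 220.1 and 173.7 CPM (a call made under 9 of 13 alternatives), and in NK cells the ratios of -0.87 and -0.51 and in CD8 T cells those of -0.90 and -0.55 missed the call. Per cell the RNA went the other way in NK cells, with 1.88, 2.01 and 2.64 UMIs of *Cd69* per cell, so the direction depends on whether it is counted per cell or as a share of all UMIs of these deeper red cells. The share of NK cells with a *Cd69* UMI was 56.2%, 58.4% and 61.2%, and after each cell was thinned to 2000 UMIs it was 31.6%, 27.1% and 22.2%.

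*S1pr4* was called in none of the 5 types, with mean log2 ratios from -0.43 in NK cells to 0.35 in Tregs. *S1pr5* was lower in CD8 T cells, at 0.107 CPM against 0.854 and 0.816 CPM, on 63 UMIs in all. In NK cells the Kaede-green libraries themselves differed by -1.43 on the log2 scale, and the ratios of -2.40 and -0.98 of Kaede-red to them made no call.

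**Figure D2:**
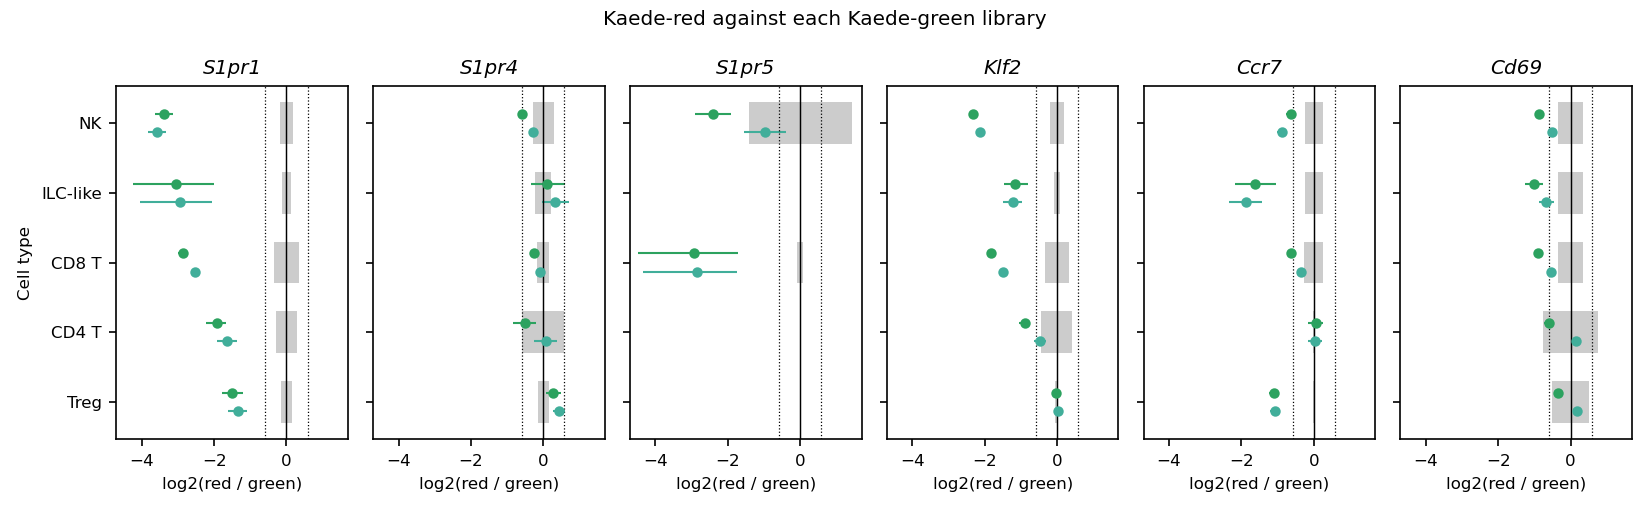
Log2 ratio of Kaede-red to Kaede-green CPM for each gene and type, with 1 point per Kaede-green library and bars for exact 95% counting intervals. Grey bands span the difference between the Kaede-green libraries and dotted lines mark 1.5-fold; *S1pr1* lies below the lines in all 5 types and *S1pr4* crosses or stays near 0.

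The share of NK cells with an *S1pr1* UMI was 13.7%, 19.4% and 3.59% (exact binomial 95% interval 2.97% to 4.30% in Kaede-red), although the red cells were the deepest. After thinning to 2000 UMIs it was 5.47%, 6.91% and 1.10%. In cells with at least 2 UMIs of *Siglech*, a plasmacytoid dendritic cell marker, and none of *Ncr1*, *Cd3e* or *Cd79a*, a comparison chosen after the values were seen, it was 2.75%, 1.97% and 1.43% of 109, 152 and 70 cells, with median UMIs of 11434, 12187.5 and 14369. Their interval in Kaede-red rested on 1 cell with a UMI and ran from 0.0362% to 7.70%. The unthinned share in red NK cells lay within it, so this comparison cannot tell expression from background there. The shares in both Kaede-green libraries lay above the intervals of these cells (0.571% to 7.83% and 0.409% to 5.66%).

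Cells of like depth gave smaller differences in NK cells. Among cells with 4000 to 10000 UMIs, a window added after the data were seen, *S1pr1* in NK cells stood at 35.5, 53.7 and 15.0 CPM, a mean log2 ratio of -1.54 that was still called lower. *Klf2* in the same NK cells stood at 319.4, 372.7 and 226.7 CPM, and its mean ratio moved from -2.22 to -0.61, with the call lost. *Cd69* stood at 273.8, 248.8 and 256.5 CPM, a mean ratio of -0.02. In CD8 T cells of this window *S1pr1* stood at 125.0, 116.9 and 35.4 CPM and *Klf2* at 350.1, 291.8 and 155.8 CPM, and both calls remained. *S1pr1* was also lower in the window in CD4 T cells (364.7, 337.5 and 86.0 CPM), in Tregs (86.9, 88.7 and 23.5 CPM) and in ILC-like cells (36.6, 64.8 and 13.2 CPM). The changes in *S1pr1* in the window were 2.90-fold in NK cells, 3.41-fold in CD8 T cells, 3.48-fold in ILC-like cells, 3.71-fold in Tregs and 4.05-fold in CD4 T cells. The order over all cells was thus not kept. These folds have no interval and rest on 812, 1083, 62, 421 and 137 red cells, in the same order of types. Differences between them were not tested, so they set no order of the types. For *Klf2* the call was also lost in ILC-like cells (mean ratio -0.41) and was made in CD4 T cells (-0.74), so which types were called differed from that over all cells. In all, *S1pr1* was lower under 13 of 13 alternatives in NK, CD8 T, CD4 T cells and Tregs, and under 12 in ILC-like cells, where thinning left too few UMIs for a call.

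**Figure D3:**
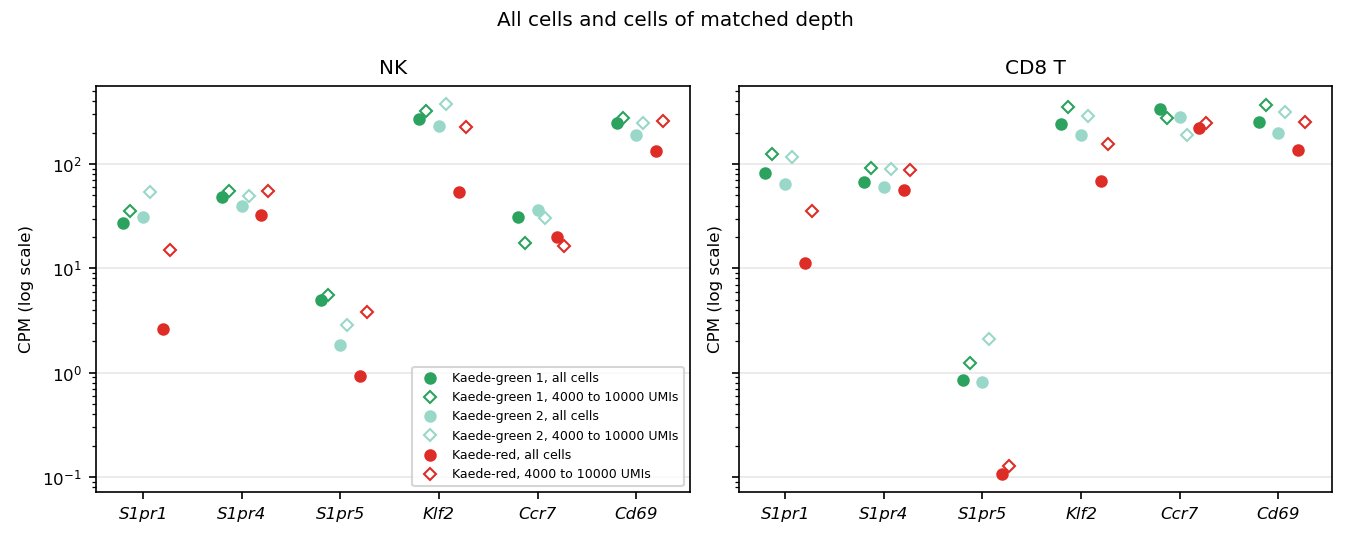
CPM of the 6 genes (log axis) in NK and CD8 T cells of each library, in all cells and in cells with 4000 to 10000 UMIs. Within the window the gap between Kaede-green and Kaede-red narrows for *Klf2* and closes for *Cd69* in NK cells, and *S1pr1* remains lower in Kaede-red in both types.

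The types were then divided by integrins in NK cells and by the checkpoint receptor *Pdcd1* in T cells, since the make-up of a type can differ between colors. Cells with *Itga1* (CD49a, a tissue-residence integrin) and without *Itgam* (CD11b) numbered 298 and 441 in Kaede-green and 1415 in Kaede-red, while cells with *Itgam* alone numbered 425, 303 and 75. *S1pr1* was lower in Kaede-red in all 9 strata. In NK cells with *Itgam* alone it stood at 40.6, 55.1 and 19.1 CPM, with neither integrin at 28.0, 32.4 and 4.05 CPM, and with *Itga1* alone at 13.4, 21.5 and 1.37 CPM. Among these NK strata the lowest level was in red *Itga1* cells. The change in *Itgam* cells was 2.39-fold, with ratios of -1.04 and -1.47, but its red value rests on 12 UMIs in 75 cells, so the changes are not ranked. The NK strata held no ILC-like cells, and the share of all genes called lower is not given for the strata. Among CD8 T cells *S1pr1* stood at 153.6, 158.5 and 81.3 CPM without *Pdcd1* and at 46.3, 37.5 and 5.02 CPM with it, changes of 1.92-fold and 8.29-fold. *Klf2* was lower in both CD8 T strata (mean ratios -0.75 and -1.31) and in the NK strata with *Itga1* alone (-2.00) and with neither integrin (-1.76), and in *Itgam* cells it stood at 405.1, 322.3 and 272.2 CPM with no call. *Ccr7* was lower in both Treg strata, with and without *Pdcd1* (-0.83 and -1.54). A cell enters a stratum by detected UMIs, so the deeper red NK and CD8 T cells are assigned to *Itga1* and *Pdcd1* more readily. Red CD4 T cells were not deeper, and red Tregs were shallower (median of 7139 UMIs against 9577.5 and 10070). The part of depth in the strata was not tested.

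**Figure D4:**
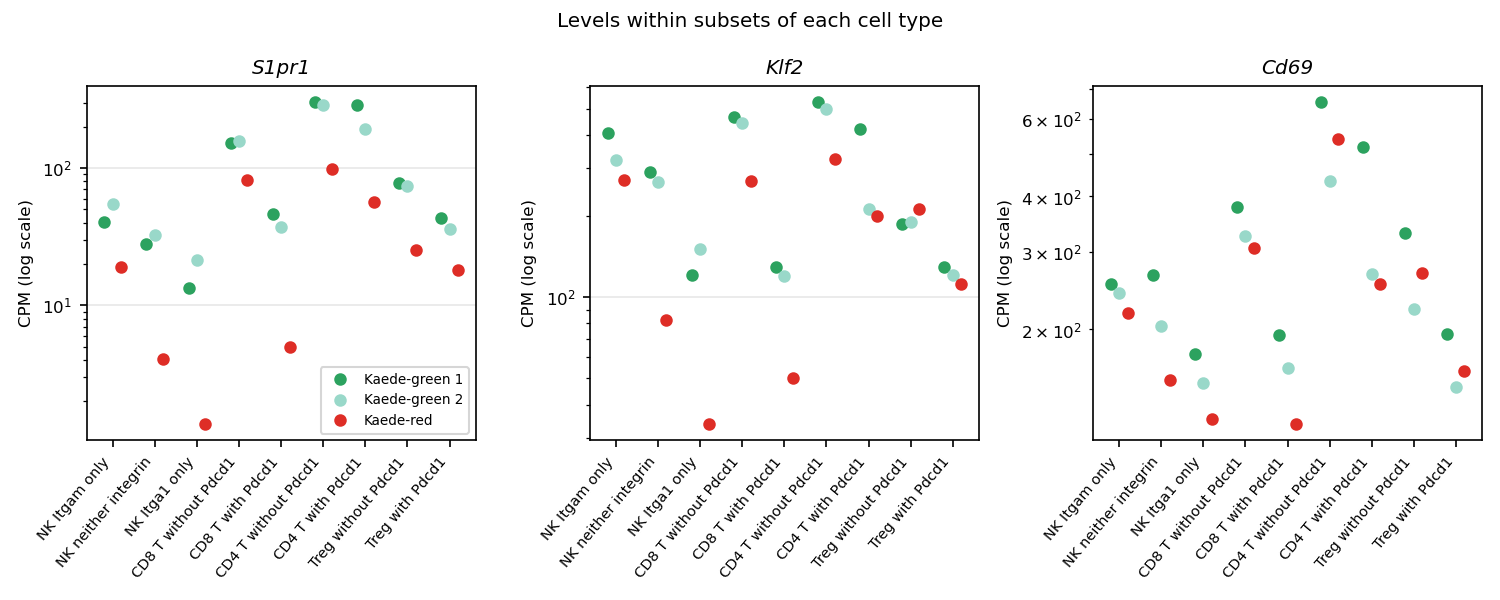
CPM of *S1pr1*, *Klf2* and *Cd69* (log axis) in strata of NK cells by *Itgam* and *Itga1* and of T cells by *Pdcd1*, 1 point per library. Kaede-red lies below both Kaede-green libraries for *S1pr1* in all 9 strata.

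Among 5 gene lists of the same pathways, genes of the circulation program (genes of circulating lymphocytes) went with *S1pr1*. In NK cells 8 of the 12 were lower in Kaede-red and 0 higher (median log2 ratio -0.999, against -0.16 over all genes), and in CD8 T cells 8 of 12 (median -1.34, against -0.00 over all genes). They included *Rasgrp2*, an activator of integrin signaling, at 19.4, 16.7 and 4.56 CPM in NK cells, and *Itga4*, an integrin chain for vessel adhesion, at 184.4, 174.5 and 78.1 CPM. In CD4 T cells 4 were lower and 1 higher, in ILC-like cells 2 were lower, and in Tregs 1 was lower and 1 higher. *Rasgrp2* was lower in all but ILC-like cells, where it stood at 8.72, 7.28 and 7.97 CPM. The lists were compared over all cells only, and the part of depth in their changes was not tested.

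The residency list did not move as 1 block. In NK cells 2 of 15 tested genes were higher, *Itga1* (30.6, 34.4 and 70.6 CPM) and *Cdh1*, the E-cadherin gene (3.02, 6.27 and 14.7 CPM), and 4 were lower, among them *Prdm1*, a transcription factor gene, at 13.8, 10.4 and 3.75 CPM. In CD4 T cells *Prdm1* was higher instead, at 26.9, 28.1 and 43.3 CPM, as 1 of 5 genes higher and 1 lower. Of the genes that signal below S1P receptors, *Gna13*, a G protein subunit, was lower in NK (165.1, 144.2 and 68.5 CPM), CD8 T and ILC-like cells and *Dock2* in NK cells alone, and the other 10 of 12 were called in no type. Of the other S1P receptors and enzymes, 9 could be tested in NK cells: *S1pr3* (1.21, 2.26 and 4.38 CPM) and *Plpp1*, a lipid phosphatase (0.352, 0.358 and 0.706 CPM), were higher and *S1pr2* (7.25, 6.92 and 3.80 CPM) was lower. In the immediate early list, which also holds the heat-shock genes *Hspa1a* and *Hspa1b*, 4 of 13 were lower in NK cells and 0 higher. The 4 were *Zfp36*, *Junb*, *Hspa1b* and *Hspa1a*. Of all genes 15.3% were called lower in NK cells.

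Within a type, cells that held an *S1pr1* UMI were compared with cells that did not, in each library. Cells were thinned to 2000 UMIs for the assignment, and the sums used all UMIs. Among red NK cells, 35 with *S1pr1* held 323442 UMIs and 3139 without it 62032294, fewer per cell with *S1pr1*. Red CD8 T cells went the same way, with 1154184 UMIs in 118 cells and 64323706 in 3864. The part of depth in these differences was not tested. *Klf2* was higher with *S1pr1* in all 4 types large enough. In CD8 T cells *Klf2* stood at 512.2, 514.9 and 473.1 CPM with *S1pr1* and 201.4, 154.2 and 60.8 CPM without it, in the order Kaede-green 1, Kaede-green 2 and Kaede-red. The difference was 3.96-fold (log2 SE 0.21, adjusted p = 4.07e-05, edgeR, in the same direction in 3 of 3 libraries). In NK cells *Klf2* stood at 446.7, 438.7 and 167.0 CPM with *S1pr1* and at 260.0, 222.3 and 53.2 CPM without it, 1.88-fold (adjusted p = 5.57e-19). The 167.0 CPM come from 35 red cells with *S1pr1*. Since the comparison above could not tell *S1pr1* in red NK cells from background, this value carries that limit. In CD4 T cells *Klf2* was 2.15-fold higher (adjusted p = 5.26e-06) and in Tregs 2.78-fold higher (adjusted p = 8.28e-06), also by edgeR. Of all genes 4.23% were higher and 8.31% lower with *S1pr1* in NK cells, 11.4% and 15.2% in CD8 T cells, 2.85% and 3.76% in CD4 T cells, and 1.48% and 1.23% in Tregs.

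*Cd69* was higher with *S1pr1* in CD8 T cells and Tregs. In Tregs it stood at 375.4, 462.9 and 349.9 CPM with *S1pr1* and 248.0, 163.9 and 203.1 CPM without it, 1.97-fold higher (adjusted p = 0.000811, edgeR), and in CD8 T cells it was 1.41-fold higher (adjusted p = 0.00111). In NK cells it was lower with *S1pr1*, at 176.8, 179.4 and 132.9 CPM against 248.3, 192.5 and 134.5 CPM, 1.27-fold (adjusted p = 0.0130, edgeR), a small difference that was lost without either Kaede-green library (adjusted p of 0.624 and 0.181) and by DESeq2 (adjusted p = 0.151). In CD4 T cells the difference was not called (adjusted p = 0.670), with 447.6 against 679.0 CPM and 269.9 against 385.8 CPM in Kaede-green and 700.8 against 360.6 CPM over 32 red cells with *S1pr1*. Without the red library CD4 T cells with *S1pr1* were lower in *Cd69* by 0.55 on the log2 scale (adjusted p = 7.83e-06, edgeR).

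Shares of cells were also counted after thinning to 2000 UMIs. Thinning evens the UMIs counted per cell but does not choose cells of like depth, so the part of depth was not tested here either. Among NK cells thinned to 2000 UMIs, a *Cd69* UMI was found in 23.2% (exact binomial 95% interval 16.6% to 31.1%), 22.3% and 17.1% of cells with *S1pr1* and in 32.1% (30.2% to 34.0%), 27.5% and 22.3% of cells without it, lower with *S1pr1* in 3 of 3 libraries but with intervals that overlapped in each library. Among Tregs the shares were 50.9% (37.1% to 64.7%), 51.5% and 53.6% with *S1pr1* against 32.1% (27.2% to 37.4%), 26.3% and 26.9% without it. A *Klf2* UMI was found in 51.6% and 49.2% of Kaede-green CD8 T cells with *S1pr1* and in 59 of 118 such cells in Kaede-red, against 27.4%, 21.5% and 10.1% of those without it. The Kaede-red cells that kept an *S1pr1* UMI thus held *Klf2* about as often as the Kaede-green ones, while the share among cells without *S1pr1* was lowest in Kaede-red. In NK cells these shares of *Klf2* were 54.9%, 40.8% and 37.1% (21.5% to 55.1%) with *S1pr1* and 35.2%, 32.9% and 12.4% without it. These shares are a description, since the cells of 1 library are not replicates.

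*S1pr4* rose with *S1pr1* in NK cells (1.46-fold, adjusted p = 0.00498) and CD8 T cells (1.64-fold, adjusted p = 0.000115), while the differences of 1.40-fold in CD4 T cells and 1.49-fold in Tregs did not pass (adjusted p of 0.0613 and 0.166, edgeR). The call in NK cells was lost without either Kaede-green library (adjusted p of 0.0683 and 0.466). *Ccr7* was lower with *S1pr1* in Tregs, at 137.3, 127.1 and 43.3 CPM against 226.4, 219.9 and 103.6 CPM (adjusted p = 0.00729, edgeR). That call was lost without Kaede-green 1 (adjusted p = 0.108) and turned to 0.60 higher on the log2 scale when cells were assigned on all their UMIs (adjusted p = 0.0791).

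Cells with and without a *Cd69* UMI were compared in the same way. *Klf2* was higher with *Cd69* in CD8 T cells (357.2, 312.0 and 140.2 CPM against 189.2, 148.6 and 51.2 CPM, 2.23-fold, adjusted p = 4.81e-07), Tregs (2.05-fold, adjusted p = 1.43e-05) and NK cells (1.60-fold, adjusted p = 2.89e-05), with no call in CD4 T cells (adjusted p = 0.455, all by edgeR). In NK cells this was 0.06 on the log2 scale when cells were assigned on all their UMIs (adjusted p = 0.400). *S1pr1* was higher with *Cd69* in CD8 T cells, at 103.1, 90.0 and 20.6 CPM against 72.5, 55.5 and 9.03 CPM, 1.68-fold (adjusted p = 8.45e-05), and in Tregs 1.96-fold (adjusted p = 0.000424, edgeR). In NK cells it was not called, at 21.8, 26.6 and 2.81 CPM against 29.3, 32.4 and 2.55 CPM (adjusted p = 0.0868, edgeR), and was called lower under 4 of 10 alternatives, by -0.86 with cells assigned on all their UMIs (adjusted p = 0.000493) and at adjusted p up to 0.0429 in the others. *Ccr7* was lower with *Cd69* in CD8 T cells, 1.25-fold (adjusted p = 0.000488), and *S1pr4* in NK cells, 1.16-fold (adjusted p = 0.0427, both by edgeR). The *Ccr7* call was lost with cells assigned on all their UMIs (adjusted p = 0.3632, edgeR). The *S1pr4* call was lost without either Kaede-green library (adjusted p of 0.2425 and 0.06995, edgeR). Of all genes 4.89% were higher and 3.59% lower with *Cd69* in NK cells, 12.5% and 11.6% in CD8 T cells, 1.24% and 0.481% in CD4 T cells, and 3.41% and 1.71% in Tregs.

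**Figure D5:**
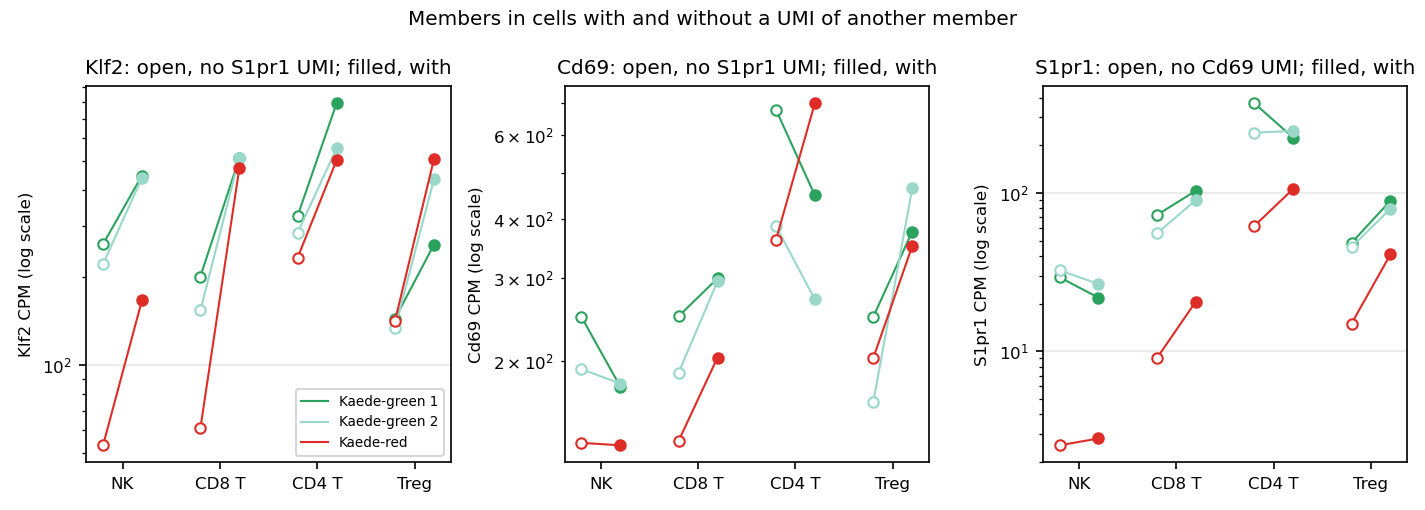
CPM (log axis) of *Klf2* and *Cd69* in cells with and without an *S1pr1* UMI, and of *S1pr1* in cells with and without a *Cd69* UMI, for NK, CD8 T, CD4 T cells and Tregs, with lines joining the sums of 1 library. *Klf2* rises with *S1pr1* in all 12 pairs, and *Cd69* rises with it in Tregs and CD8 T cells. In NK cells *Cd69* is lower with *S1pr1* in both Kaede-green libraries and nearly level in Kaede-red, a call lost without either Kaede-green library.

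Genes of the lists moved in the same comparison, with the limit of depth given above. With *S1pr1*, 9 of the 12 circulation genes rose in NK cells, 8 in CD8 T cells (with *Zeb2* and *Tbx21*, regulators of effector cells, falling), 7 in CD4 T cells and 6 in Tregs. *Klf3*, a KLF family repressor, rose by 1.09 on the log2 scale in NK cells (SE 0.18) and by 1.89 in CD8 T cells (SE 0.21), and *Rasgrp2* by 2.22 in Tregs (SE 0.29). Of the residency genes in NK cells, the chemokine gene *Xcl1*, named after its values were seen, fell by 0.93 (SE 0.06). The 2 others called there rose, *Itgae* by 2.02 (SE 0.55) and *Nr4a2* by 0.325 (SE 0.10). In CD8 T cells 1 residency gene rose and 6 fell, in CD4 T cells 0 and 2, and in Tregs 1 and 1. *Gna13* rose in all 4 types, by 0.51 to 0.80. With *Cd69*, 13 of the 13 genes of the immediate early list, *Hspa1a* and *Hspa1b* among them, rose in NK cells and in CD8 T cells, 11 in Tregs and 8 in CD4 T cells. Of the residency list 7 genes rose in NK cells, 8 in CD8 T cells, 6 in Tregs and 4 in CD4 T cells. Those in NK cells were *Rgs1*, *Xcl1*, *Nr4a3*, *Bhlhe40*, *Prdm1*, *Ahr* and *Nr4a1*, while *Itga1*, *Itgae* and *Cxcr6* were not called there. *Itgae* was among those that rose in CD8 T cells and Tregs. The residency gene *Cxcr6*, a chemokine receptor gene, fell in CD8 T cells by 0.25 and in Tregs by 0.41 on the log2 scale. Circulation genes rose with *Cd69* too, 8 of the 12 in CD8 T cells with 0 lower (median 0.51, against 0.00 over all genes), 3 in Tregs and 3 in NK cells, where *Lef1*, a transcription factor gene, fell by 0.25, and 0 in CD4 T cells.

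The genes named by the size of their change are given with UMIs and CPM pooled over the 3 libraries, which differ in their shares of the cells. Those lowest with *S1pr1* in NK cells were at 0 UMIs there, such as the mitotic kinase gene *Bub1*, with 568 UMIs in cells without *S1pr1* (at least 4.58-fold lower, from 3 counts). In CD8 T cells *Sox4*, a transcription factor gene, stood at 12.4 CPM with *S1pr1* and 0.596 CPM without it (10.2-fold in the fit within libraries, adjusted p = 0.000711, edgeR), and in CD4 T cells *Scin*, an actin-severing protein gene, was at 0 UMIs with it and 123 without (at least 15.1-fold lower). CD4 T cells with *S1pr1* were higher in *Tcrg-C1*, a gamma-delta T cell marker (42.7 against 9.54 CPM). With *Cd69*, NK cells were higher in the chemokine genes *Ccl3* (164 against 35.0 CPM) and *Ccl4* (906.8 against 232.8 CPM). CD4 T cells were higher with it in *Egr1* (260.1 against 42.5 CPM) and the cytokine gene *Il17a* (42.7 against 13.7 CPM). The part of gamma-delta T cells in the CD4 T values was not tested. NK cells without *Cd69* were higher in macrophage genes, with *C1qb* at 7.93 against 0.871 CPM, and the 6 myeloid markers summed to 16.2, 101 and 8.98 CPM in all NK cells of the 3 libraries, with none of the 6 at 0. Their part in these differences was not tested.

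Over the 17 sums, log2 CPM of *S1pr1* ran closest to that of *Klf2* among the members (Pearson's r = 0.90) and nearly as close to *Cd69* (r = 0.90), and *Klf2* to *Cd69* (r = 0.91). *S1pr5* ran with none of them, with r from -0.40 to 0.04. Of 5168 genes with a mean of at least 20 CPM, *Kdm7a* (0.97), *Chd2* (0.96) and *Smchd1* (0.95) were most like *S1pr1*, *Sp100* (0.97) most like *Klf2*, *Acp5* and *Irf4* (0.96 and 0.95) most like *Ccr7*, *Clk1* and *Mcl1* (0.94 each) most like *Cd69*, *Map4k2* (0.91) most like *S1pr4*, and *Nup210* and *Gzma* (0.87 and 0.86) most like *S1pr5*. The sums share libraries, depth and cell types, and these values describe likeness over 17 sums and no more.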

How the data were processed

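The deposited tables held raw UMI counts per gene and cell barcode, which the authors made with Cell Ranger (version 6.1.2 in the submitters' processing notes, 6.0.1 in the tables' header) on mm10, as filtered barcodes of 3 libraries. A cell was kept if it had at least 1000 and at most 6000 genes and less than 7.5% mitochondrial UMIs, which left 10000, 11078 and 10865 cells. Cells that met several type rules (151, 369 and 280) were left out, and no doublet caller was run. UMIs were summed per library and type. Types and cells with and without *S1pr1* or *Cd69* were compared with edgeR 4.0.16 (quasi-likelihood test, TMM, filterByExpr, library as a block, Benjamini-Hochberg adjustment over all genes of a contrast, threshold 0.05) in R 4.3.3. Sums under 20 cells were left out of tests, and in the comparison of types the NK sums held no ILC-like cells. Color ratios used CPM with 0.5 counts added, and exact 95% intervals cover counting error only. Biological replication exists for Kaede-green only. The members and lists were chosen with earlier results of these data known. Genes named by size were, per list, the 3 with the largest color change called in NK cells, and examples of the 5 largest on each side of the *S1pr1* and *Cd69* comparisons. Alternatives included DESeq2 1.42.0. The fits to summed counts were tested on simulated data.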

Additional observations from a re-analysis of the deposited data

Results flagged for a closer look

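Differences between types in how members go together were tested as an interaction over 12 sums, a test added after the data were seen (edgeR's quasi-likelihood test, Benjamini-Hochberg adjustment over all genes). *Cd69* differed between cells with and without *S1pr1* by 0.86 less in NK than in CD8 T cells on the log2 scale (-0.86, adjusted p = 0.000643) and by -1.26 between NK cells and Tregs (adjusted p = 0.00598). *Klf2* differed in the same way between NK and CD8 T cells by -1.09 (adjusted p = 0.0105). *S1pr1* differed between cells with and without *Cd69* by -1.02 between NK and CD8 T cells (adjusted p = 0.00383) and by -1.22 between NK cells and Tregs (adjusted p = 0.00333). *Klf2* with and without *Cd69* differed by 0.89 between CD8 T and CD4 T cells (adjusted p = 0.0203). Of all genes 2.85%, 0.273%, 2.22%, 0.294% and 0.472% passed for NK against CD8 T cells and Tregs by *S1pr1*, for the same pairs by *Cd69*, and for CD8 T against CD4 T cells by *Cd69*.

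Some changes between colors had opposite signs in different types, against both Kaede-green libraries, and these differences were not tested. For *S1pr4* the mean log2 ratio was 0.65 higher in ILC-like than in NK cells and 0.38 higher than in CD8 T cells, and in Tregs 0.79 and 0.52 higher than in these types. For *Ccr7* it was higher in CD4 T cells by 0.81 than in NK cells, 1.79 than in ILC-like cells, 0.53 than in CD8 T cells and 1.13 than in Tregs. Some of these signs rest on small ratios. *Ccr7* in CD4 T cells went from 0.04 to -0.03 under TMM scaling, -0.14 under strict type rules, -0.21 as the mean of per-cell CPM, -0.28 without cycling cells and -0.68 among cells with 4000 to 10000 UMIs, and *S1pr4* in ILC-like cells went to -0.10 without cycling cells.

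Cells that met no type rule (3945, 3646 and 2504) also held UMIs of all members, above the limit that 0 counts allow. Over the 3 libraries they stood at 100.6 CPM for *S1pr1*, 54.0 for *S1pr4*, 1.15 for *S1pr5*, 354.6 for *Klf2*, 132.7 for *Ccr7* and 351.4 for *Cd69*. The 3 libraries gave 121.3, 109.6 and 63.0 CPM of *S1pr1* in these cells.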

How the results depend on the processing

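Of the member and type pairs, 9 to 18 were lower in Kaede-red under the alternatives (main 13) and 0 higher, and 14 to 18 with 1 Kaede-green library left out. TMM scaling moves NK ratios up by 0.21 (median of all genes -0.16), giving *S1pr1* -3.26, *Klf2* -2.00 and *Ccr7* -0.55, the last no longer called. *S1pr1* in ILC-like and *S1pr5* in CD8 T cells fell under 30 UMIs after thinning. Tests between types that passed ranged from 35 to 58 (main 47), and from 39 to 58 without 1 library. *Klf2* in CD8 T cells against Tregs went from -0.03 to 0.55 without Kaede-red (adjusted p = 0.00101) and to -0.39 without Kaede-green 1. Tests by *S1pr1* passed in 10 cases, by *Cd69* in 7, and in 8 to 15 and 6 to 9 without 1 library. Without *Mki67* or *Top2a* cells 6 passed by *S1pr1*. Of the tests still made there, only *S1pr4* in NK cells lost its call (adjusted p = 0.197, edgeR). A type with under 20 cells on a side was not tested. Assigning cells on all UMIs turned *Ccr7* by *S1pr1* in CD4 T cells from 0.04 to -0.65 (adjusted p = 0.0360) and in Tregs from -0.83 to 0.60. Sums of 1 library are paired by construction, so the library was the block. With no library block 5 tests by *S1pr1* and 1 by *Cd69* passed. No paired analysis was possible because of the 1 Kaede-red library for the colors.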
